A study of Mus musculus with 18 samples.

Results

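Mir22 is the mouse gene for the hairpin that gives the microRNA miR-22, and it held more counts than any of the other loci in small RNA libraries from adipose-derived stromal cells (ASC) and their extracellular vesicles (EVs). It is 1 of 2009 annotated miRNA loci in the count files and was chosen for that abundance. Over the 18 libraries it held 4396784 of 17629699 counts, or 24.9%. The locus next in order, Mir143, held 3477278 counts, or 19.7%. These summed counts chose the locus, so its rank and its levels are given as a description, with no test. The comparisons between groups were not used in the choice, but their values were known when it was made. The sum also leans toward vesicles: Mir22 had 1581574 counts in naive EV and 2019626 in primed EV, against 478024 in naive ASC and 317560 in primed ASC. The choice was thus not independent of the comparisons of EV with ASC.

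ASC are mesenchymal cells grown out of fat tissue, and EVs are membrane-bound particles that cells shed with RNA and protein inside. All cells came from adipose tissue of adult mice of the strain labelled NGL. Primed cells had received interferon gamma, an inflammatory cytokine, for 24 h in alpha MEM with 2% EV-free serum, and naive cells had not; all were then cultured for 48 h in that medium. The 4 groups were naive EV (n = 5, replicates 1 to 5), primed EV (n = 5, replicates 1 to 5), naive ASC (n = 4, replicates 1, 3, 4 and 5) and primed ASC (n = 4, replicates 2 to 5). TRIzol with RNeasy columns was used for cell RNA and a SeraMir column kit for vesicle RNA, so that source and isolation cannot be told apart in any comparison of EV with ASC. In such bulk samples, fewer cells of a type and less RNA per cell cannot be told apart either. Separate animals or cultures behind the replicates are not stated in the labels, and p-values then measure only the spread between these samples.

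A microRNA is cut from a hairpin precursor as a short strand from either arm, is loaded into an Argonaute protein and lowers the output of messenger RNAs that pair with its seed, bases 2 to 8. miR-22 is a conserved microRNA of many tissues, best known from heart, blood and tumours. The demethylase Tet2 is among its described targets. In fat it has been tied to adipocyte differentiation and lipid metabolism.

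The sequences of the Mir22 product and of 3 abundant microRNAs with which it is compared below are shown first, because their different seeds mark them as separate families. All are from RefSeq (GRCm38.p6). In the hairpin, which lies at chr11:75463716-75463810 on the plus strand (GRCm38), capitals mark the 5p arm and then the 3p arm. In the mature sequences, capitals mark the seed.
Mir22 hairpin: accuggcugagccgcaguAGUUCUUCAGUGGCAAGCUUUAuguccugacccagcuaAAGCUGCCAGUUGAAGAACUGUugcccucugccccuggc
mmu-miR-22-3p: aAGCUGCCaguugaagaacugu
mmu-miR-22-5p: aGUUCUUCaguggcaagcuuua
mmu-miR-21a-5p: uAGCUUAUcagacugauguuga
mmu-miR-191-5p: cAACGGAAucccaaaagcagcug
mmu-miR-125b-5p: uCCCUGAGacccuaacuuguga

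The hairpin is 95 bases long with a GC content of 55.8%, and each arm gives a strand of 22 bases. The longest run of Watson-Crick pairs between the arms was 9, joining bases 1 to 9 of miR-22-5p with bases 12 to 20 of miR-22-3p. Neither seed of miR-22 was shared with another of the 1738 mature mouse microRNAs in the RefSeq table, so in that table miR-22 has no seed family. Mir22 (ENSMUSG00000065529) lies inside exon 2 of both listed transcripts of its noncoding host gene Mir22hg (chromosome 11, 75461539 to 75466676, GENCODE M21), and inside an exon of a noncoding transcript of Tlcd2. Across 141767 GENCODE transcripts, exact matches to either arm were found in Mir22, Mir22hg and Tlcd2 alone, and all 3 cover this same place. Other microRNAs of loci named below differ in that respect, since miR-125b-5p, let-7c-5p and miR-24-3p are each encoded at 2 loci. The counting had no option for multi-mapping reads, so counts of Mir125b-1, Mirlet7c-1 and Mir24-2 may be too low beside Mir22. The part of this in the rank and ratios of Mir22 was not tested. The counts are per hairpin, so reads of the 3p and 5p strands were added together and the files do not say which arm was read.

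Library totals ran from 180812 to 3052942 counts, a 16.9-fold range, and 303 to 423 loci had counts in a library. At these depths the 95% Wilson interval of the Mir22 share was at most 0.157 percentage points to either side, for counting error only, since the reads carry no molecular identifiers. No messenger RNA was counted, so the identity of the cells could not be checked against protein-coding markers. A list of 12 mesenchymal miRNA loci, all with counts, summed to 27.1 to 43.9% of each library, while of 6 striated muscle loci Mir133a-1 and Mir133a-2 were at 0 and none passed the count filter. No pair of libraries within a group held the same counts within sampling noise. One library, naive ASC 5, stood apart in the level of Mir22, and results that rest on it are given with and without it.

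Mir22 held a larger share of the counts in vesicles than in cells. Naive EV 1 to 5 had 28.4, 29.4, 27.5, 24.5 and 26.4% of their counts at Mir22. Primed EV 1 to 5 had 27.0, 29.3, 29.2, 29.7 and 27.4%. The cell libraries were lower, with 14.7, 18.9, 20.8 and 8.20% for naive ASC 1, 3, 4 and 5 and 16.6, 15.6, 13.3 and 14.0% for primed ASC 2 to 5. Every vesicle library thus lay above every cell library. The group means in order were 28.5% ± 1.22 in primed EV (SD, n = 5), 27.3% ± 1.88 in naive EV (SD, n = 5), 15.6% ± 5.56 in naive ASC (SD, n = 4) and 14.9% ± 1.5 in primed ASC (SD, n = 4). Within EV and within ASC, the neighbours in this order overlapped and did not differ beyond their spread.

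**Figure D1:**
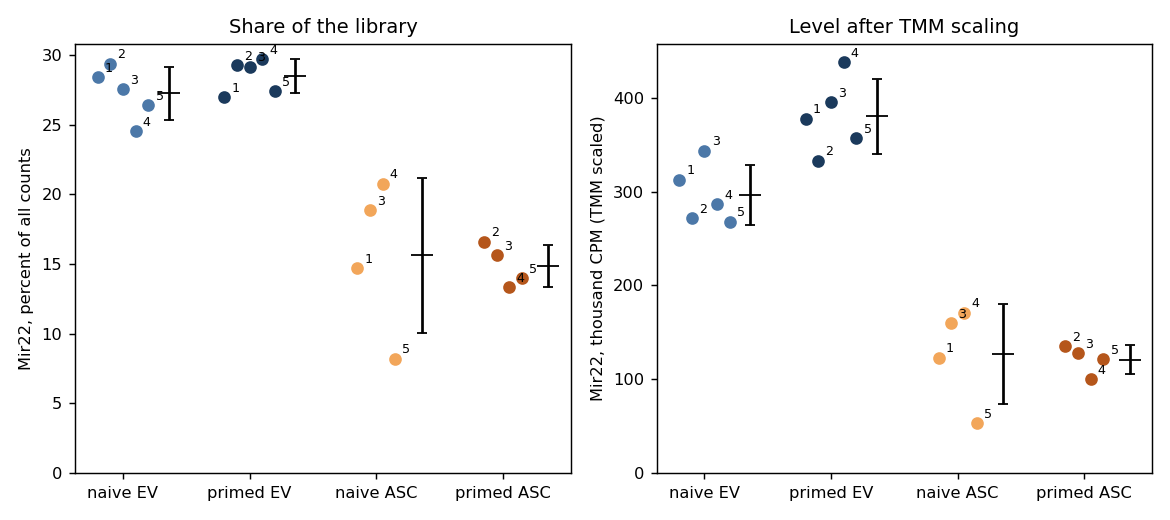
Percent of counts (left) and TMM-normalised CPM (right) of Mir22 in each of the 18 libraries, grouped on the horizontal axis; digits are replicate numbers and bars show the mean ± SD. The 10 vesicle libraries lie above the 8 cell libraries on both scales, and naive ASC 5 is the lowest cell library at 8.20% of counts.

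Mir22 was the most abundant locus in 16 of 18 libraries. It was second to Mir143 in naive EV 4 and at rank 3 behind Mir191 and Mir143 in naive ASC 5. Per base of hairpin (95 bases for Mir22, 80 for Mir143), the order changed. Mir22 then led in 13 libraries and Mir143 in the other 5, which were primed EV 3, naive EV 4 and naive ASC 1, 3 and 5. This scale was added after the data were seen. A microRNA is a short strand of an arm, so counts need not follow hairpin length, and the scale is a description only.

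The share of Mir22 was among the steadiest of the tested loci in vesicles. Its coefficient of variation was 6.90% in naive EV, against a median of 29.9% over the 245 loci with enough counts to test, and only 4 loci varied less. In primed EV it was 4.28% against a median of 27.2%, with 1 locus lower. Primed ASC gave 10.1% against 33.5%, with 9 lower. In naive ASC it was 35.6%, above the median of 30.9%, and 147 loci varied less. Without naive ASC 5 that group had a mean of 18.1% ± 3.10 (SD, n = 3) and a coefficient of 17.1%. These medians were not matched for abundance. All other loci held fewer counts than Mir22 over the 18 libraries, and counting error weighs more on low counts. The low coefficients thus do not show that Mir22 was steadier than its abundance alone would make it, which was not tested.

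In naive ASC 5, Mir22 was 9.91 points below the mean of the other 3 naive ASC libraries. Mir143, a microRNA of smooth muscle and other mesenchymal cells, was 7.05 points below, at 8.57% against 15.6%. The points went to several loci: Mir191 stood at 8.86% against 5.34%, and Mir125b-1, Mir125a and Mirlet7c-1 were 2.44, 2.23 and 1.86 points above the other libraries' mean. By a Dixon test at the 95% level, naive ASC 5 was not an outlier for Mir22 among the 4 libraries.

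Vesicles were compared with cells first in naive samples, where Mir22 was higher in EV. The scale is CPM, the normalised read count, after TMM scaling, which sets library totals on the assumption that most loci match between libraries. With 66.1% of loci passing the test below, that assumption is doubtful between EV and ASC. Mir22 stood at 312754, 271627, 343400, 286424 and 267762 CPM in naive EV 1 to 5. The naive ASC libraries 1, 3, 4 and 5 held 122712, 159806, 170906 and 52701 CPM. The groups did not overlap, and the lowest vesicle library was 1.57-fold above the highest cell library. Such separation was seen for 58.4% of the 245 loci in this comparison. By edgeR's quasi-likelihood test Mir22 was 2.34-fold higher in naive EV, a log2 difference of 1.23 (SE 0.24, 95% interval 0.74 to 1.72, adjusted p = 0.000147). In all, 66.1% of loci passed this test in either direction and 33.5% were higher in EV, so Mir22 was one of many.

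Mir22 was also higher in EV in primed samples. Primed EV 1 to 5 held 377787, 332993, 395054, 438081 and 357077 CPM of Mir22, and primed ASC 2 to 5 held 135025, 127400, 100016 and 121144 CPM. The lowest vesicle library was 2.47-fold above the highest cell library, in a comparison in which 53.5% of loci were separated. Mir22 was 3.14-fold higher in primed EV, a log2 difference of 1.65 (SE 0.24, 95% interval 1.15 to 2.15, edgeR adjusted p = 5.04e-06), where 68.2% of loci passed and 35.9% were higher. A log2 difference above that of Mir22 was found for 62 of 245 loci in the naive comparison and 54 in the primed one. Mir22, the most abundant locus, was thus not among the steepest.

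The size of the difference depends on scaling. With library totals alone, the log2 difference was 0.80 in naive and 0.94 in primed samples, both past the edgeR threshold (adjusted p = 0.000812 and 0.00017). That scaling also moved the median of all loci, from -0.24 to -0.70 in naive and from 0.02 to -0.69 in primed samples. Relative to the median locus, Mir22 was 1.47 above it with TMM and 1.5 with totals in naive samples, and 1.64 and 1.63 in primed samples. A change of scaling shifts all loci nearly alike, so this closeness follows from the calculation and is no support for the difference. On the plain share of counts, Mir22 was 11.6 points higher in naive EV and 13.6 points higher in primed EV than in ASC. For each, the exact two-sided permutation test gave p = 0.0159, the smallest possible with 5 against 4 libraries, and an adjusted p of 0.0317 over the 4 share tests.

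MicroRNAs of other cell types moved with the vesicle samples too. All 7 loci of a haematopoietic and red cell list passed the count filter, and 6 of 7 were higher in EV in each comparison, against 33.5% of all loci in naive and 35.9% in primed samples, among them Mir451a of red cells and Mir142b of leukocytes. Their summed share was 0.46 to 1.57% in naive EV, 0.247 to 0.786% in primed EV, 0.12 to 0.244% in naive ASC and 0.141 to 0.273% in primed ASC. Mir126a, the endothelial microRNA, was at 0.318 to 0.902%, 0.198 to 0.496%, 0.01 to 0.029% and 0.006 to 0.059% in the same order. Mir22 itself is also known from blood cells, and the part of such sources in its vesicle level was not tested.

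**Figure D2:**
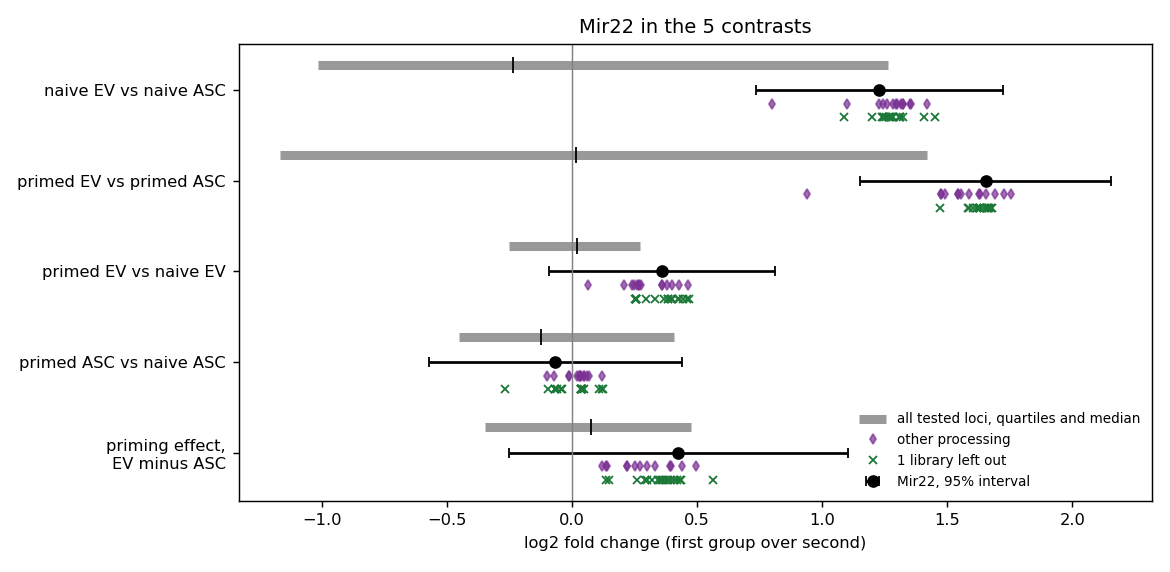
Log2 fold change of Mir22 in the 5 edgeR contrasts (black points, bars show the 95% interval), with the quartiles and median of the 245 tested loci in grey, and Mir22 under other processing (diamonds) and with 1 library left out (crosses). Mir22 is at 1.23 and 1.65 in the comparisons of EV with ASC, and its interval includes 0 in the comparisons of primed with naive samples and in the interaction.

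Interferon gamma priming did not change Mir22 past the threshold in either source. In vesicles, 4 of 5 primed libraries lay above every naive library in CPM, and primed EV 2 lay below naive EV 3, so that the groups overlapped; 2.45% of loci did not. The log2 difference was 0.36 (SE 0.22, 95% interval -0.09 to 0.81, edgeR adjusted p = 0.572), and an increase of up to 1.75-fold lies within the interval. Of all loci, 0.816% passed this test. The mean share of counts was 27.3% in naive and 28.5% in primed EV, a difference of 1.25 points that was within the spread of the libraries (exact two-sided permutation test, p = 0.246, adjusted p = 0.328, smallest possible p 0.00794).

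In cells, the 4 primed libraries fell inside the range of the naive ones, where 11.4% of loci did not overlap. That range rests on naive ASC 5. Without it the lowest naive library stood at 122712 CPM. Primed ASC 4 and 5 lay below that, at 100016 and 121144 CPM, and primed ASC 2 and 3 stayed inside the range. The log2 difference of Mir22 was -0.066 (SE 0.24, 95% interval -0.57 to 0.44, edgeR adjusted p = 0.882), where 10.2% of loci passed. Its sign was positive under 10 of 14 other settings, scalings among them, so no direction is given. The share differed by -0.758 points (exact two-sided permutation test, p = 0.857, adjusted p = 0.857, smallest possible p 0.0286).

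The difference between the priming effects in EV and in ASC, the interaction, was 0.42 for Mir22 (SE 0.32, 95% interval -0.25 to 1.10, edgeR adjusted p = 0.577), so the larger vesicle excess in primed samples was not shown to differ from that in naive samples. In this contrast 0% of loci passed edgeR's test, 26 had an unadjusted p below 0.05, limma-voom called 0 and DESeq2 called 3.

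The standard errors were smaller with naive ASC 5 left out. The log2 difference was 1.09 (SE 0.12) for naive EV against ASC and 1.65 (SE 0.11) for primed EV against ASC. For priming it was 0.30 in EV (SE 0.10, unadjusted p = 0.00635, edgeR adjusted p = 0.144) and -0.27 in ASC (SE 0.12, unadjusted p = 0.0332, edgeR adjusted p = 0.158). The interaction was 0.56 (SE 0.15, unadjusted p = 0.00146, edgeR adjusted p = 0.159). None of the last 3 passed after adjustment over all loci.

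Mir22 was then set against each of the 9 loci next in abundance within the same library, a ratio that no scaling factor touches. The ratio compares a pair of loci and cannot say which of them changed. As the ratios share Mir22, they are given as a description.

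Against Mir143, whose hairpin yields a microRNA of smooth muscle and mesenchymal cells, Mir22 held ratios of 0.957 to 1.49 in 3 groups. Naive EV 1 to 5 gave ratios of 1.22, 1.45, 1.23, 0.972 and 1.21, and primed EV 1 to 5 gave 1.49, 1.28, 1.18, 1.21 and 1.21. Naive ASC 1, 3, 4 and 5 gave 1.14, 1.11, 1.22 and 0.957, while primed ASC 2 to 5 gave 2.00, 2.12, 1.81 and 2.09. Primed ASC lay above every other library, with a log2 difference of 0.86 from naive ASC. Only 3.69% of the 244 ratios to Mir22 were separated between primed and naive ASC. In the edgeR fit Mir143 itself was lower in primed than in naive ASC (log2 difference -0.89, SE 0.23, adjusted p = 0.0233), and Mir22 was at -0.066. In naive ASC 5, where both fell short of the other naive ASC libraries, the ratio of 0.957 was the lowest of the 18 libraries.

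Against Mir21a, whose product miR-21a-5p is a common microRNA of fibroblasts, Mir22 lost ground in vesicles. The ratio was 2.10 to 2.84 in naive EV and 2.39 to 3.10 in primed EV, but 6.83 to 10.1 in naive ASC and 7.20 to 13.6 in primed ASC. The vesicle and cell libraries did not overlap. Mir21a was higher in EV by a log2 difference of 3.07 in naive and 3.58 in primed samples, above the 1.23 and 1.65 of Mir22.

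Against most of the others Mir22 gained. Its ratio to Mir191, a microRNA found in most tissues, was 15.1 to 21.9 in naive EV and 14.9 to 21.9 in primed EV, against 0.926 to 4.32 in naive ASC and 1.62 to 2.56 in primed ASC. Its ratio to Mir125b-1, one of the loci of the lin-4 homologue miR-125b, had geometric means of 33.3, 32.5, 2.75 and 1.79 in naive EV, primed EV, naive ASC and primed ASC. Mir125a, of the same seed family, gave 45.3, 50.7, 3.77 and 2.25, and Mir99b, which lies in a cluster with it, 47.3, 56.2, 4.46 and 3.35. Mirlet7c-1 gave 10.3, 10.2, 3.75 and 4.72. For these 5 loci the vesicle and cell libraries did not overlap in either comparison.

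The Mir10 pair, which lie within the Hox clusters, behaved less alike. The ratio to Mir10a had geometric means of 7.42, 6.64, 2.60 and 3.32 in the same order and was separated between EV and ASC in both comparisons. The ratio to Mir10b, at 8.94, 6.76, 3.80 and 2.74, overlapped in both, with naive ASC libraries spread from 1.72 to 9.47. Of the 9 ratios, 6 were separated upward and 1 downward between naive EV and ASC, where 64.8% of the ratios to all 244 loci were separated. Between primed EV and ASC, 6 were separated upward and 2, those to Mir143 and Mir21a, downward, where the background was 66.8%. Between primed and naive EV no ratio of the 9 was separated, where the background was 5.74%.

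**Figure D3:**
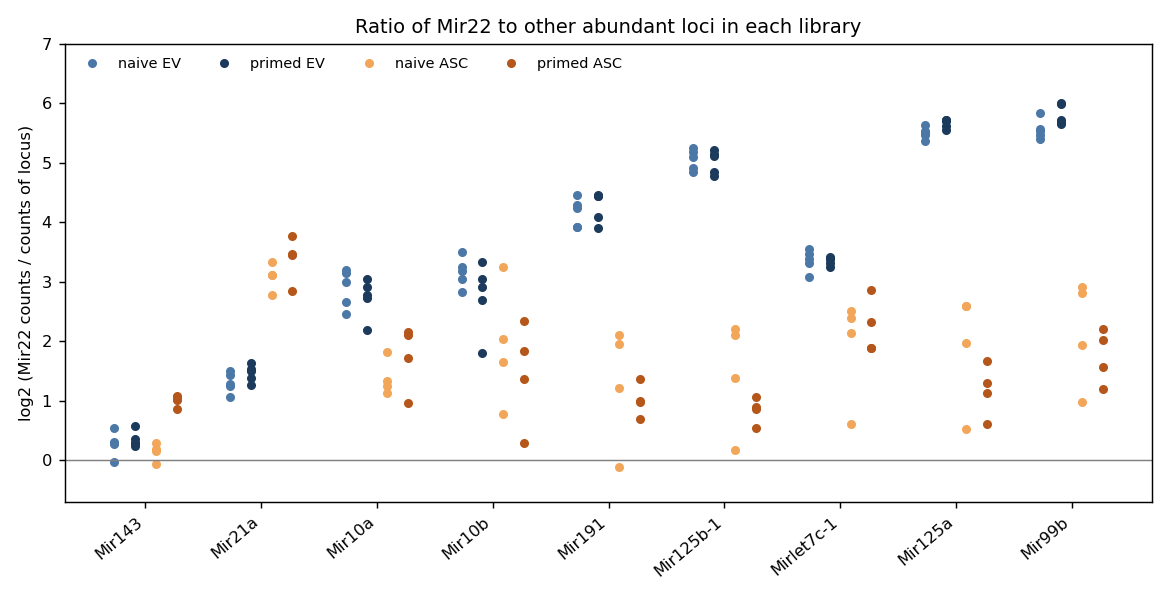
Ratio of Mir22 counts to the counts of each of the 9 next most abundant loci on a log2 axis, with 1 point per library. Vesicle libraries lie above cell libraries for Mir191, Mir125b-1, Mirlet7c-1, Mir125a, Mir99b and Mir10a and below them for Mir21a, and for Mir143 the primed ASC libraries stand above the rest, at ratios of 1.81 to 2.12.

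Over all loci, the ratio of Mir22 to the tested loci was higher in EV than in ASC for 186 of 244 in naive and 190 of 244 in primed samples. Of these, 134 and 139 were separated, against 24 and 24 separated the other way. The 10 most abundant loci changed order between sources around Mir22, which had the highest group mean in each of the 4 groups.

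**Figure D4:**
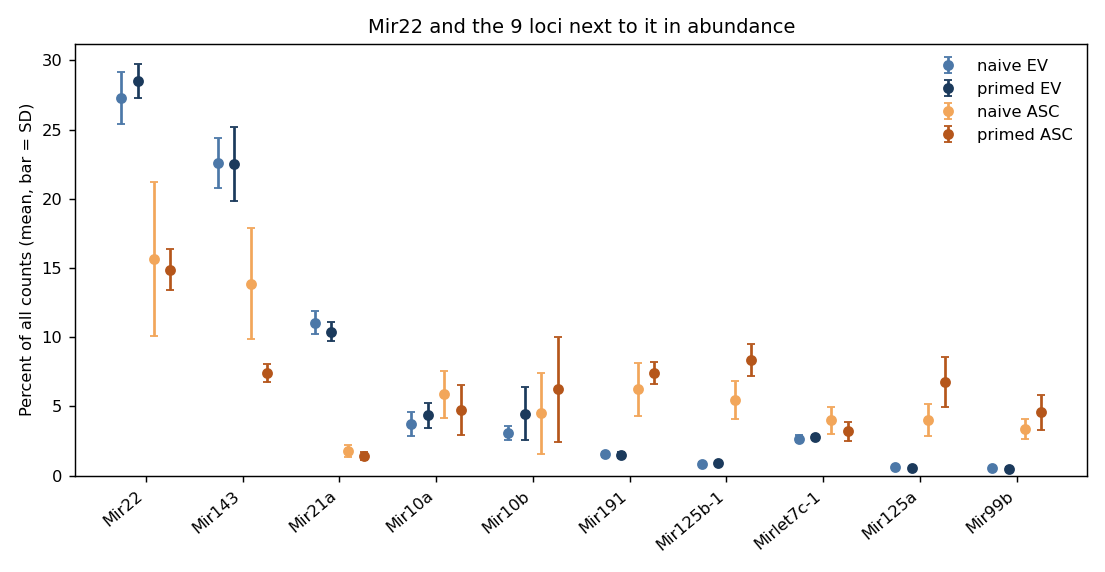
Mean percent of counts (points; bars show ± SD) of Mir22 and the 9 loci next in abundance in each of the 4 groups. Mir22 has the highest mean in every group, and Mir143 is second in all but primed ASC, where it is at rank 3 with 7.43%.

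Loci whose level followed that of Mir22 were sought by Pearson's r of log2 CPM (prior count 2) over the 18 libraries, among 244 loci. The points share library and scaling, so r is a description. The highest were Mir24-2 (0.967), Mir376c (0.961), Mir27a (0.959), Mir29c (0.947) and Mir1197 (0.942). Some of these were near the floor in cells. In naive and primed ASC, Mir376c held means of 0.0030 and 0.0023% of counts, Mir29c 0.0011 and 0.0015%, and Mir1197 0.00035 and 0.00014%. The r of these loci thus rest on few counts in ASC. Mir24-2 and Mir27a lie side by side on chromosome 8, and Mir376c and Mir1197 lie in the imprinted cluster on chromosome 12. All 5 were higher in EV than in ASC in both edgeR comparisons, where 33.5% of all loci were higher in naive and 35.9% in primed samples. A choice by r over both sources favours such loci, so this count adds no support. Mir27a came closest to Mir22 in size, at 1.18 in naive and 1.63 in primed samples. The lowest r were those of Mir214 (-0.924), a microRNA of fibroblasts, Mir615 (-0.920) and Mir5099 (-0.902). In all, 17 loci were above 0.9 and 117 above 0.

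These r include the gap between EV and ASC. Within groups, as deviations from the group means, the highest r with Mir22 were those of Mir143 (0.916), Mir24-2 (0.840), Mir376c (0.793), Mir21a (0.788) and Mir186 (0.773). Without naive ASC 5 they were 0.745, 0.558, 0.301, 0.156 and 0.622. Leaving out that library thus lowered r most for Mir21a and Mir376c, and Mir143 kept the highest of the 5.

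Position gave no such likeness. Of the 4 miRNA loci within 1 Mb of Mir22, Mir132 and Mir212, a pair known from neurons and induced by CREB, passed the count filter with 24216 and 5110 counts. They lie 289951 and 290238 bases away. Mir132 was lower in naive EV than in naive ASC (log2 difference -0.88, SE 0.26, edgeR adjusted p = 0.00567), opposite to Mir22, and stood at -0.10 in primed samples (adjusted p = 0.745). Mir212 was at -0.46 and 0.25 and passed in neither. Their r with Mir22 over the 18 libraries were -0.552 and -0.247.

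Mir22 was last set beside a list of microRNAs that share its described role in fat; the counts describe the list, with no test of it. Of 22 loci tied to fat cells and lipid metabolism, 18 passed the filter. In naive EV against ASC 9 rose and 5 fell, with a median log2 difference of 0.38 against -0.24 for all loci, of which 33.5% rose and 32.7% fell. In primed samples 9 rose and 4 fell, with a median of 0.38 against 0.02 for all loci, of which 35.9% rose and 32.2% fell. Mir27b, which restrains adipogenesis, was higher by 1.04 and 1.41, and Mir30a by 0.93 and 1.53, while Mir30d of the same family fell by 0.85 and 1.09. With priming 0 of 18 passed edgeR's test in EV, as for Mir22, and in ASC 1 rose and 1, Mir143, fell, where 5.31% of all loci rose and 4.9% fell. Mir22 thus passed in the same direction as 9 of the 18 in each comparison of EV with ASC, and opposite to 5 and 4. The rest did not pass the test, and their directions were not counted. The 9 are not a majority of the 18, where 33.5 and 35.9% of all loci rose.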

How the data were processed

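Small RNA was sequenced from 18 samples in 4 groups, taken from the source names; the labels call the molecule vesicle miRNA for ASC samples too. The deposited values are raw counts per miRNA hairpin locus. The counting tool was featureCounts 1.5.3, unstranded, on Ensembl release 76 miRNA genes and without options for multi-mapping or overlapping reads, per the file headers. STAR 2.0.4, bcl2fastq, Subread and the build GRCm38 are from the submitters' processing notes, which give another featureCounts version. Trimming was not given in the sources used here. Unstranded counting cannot separate antisense reads.

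Of 2009 loci, 1899 matched GENCODE M21 by identifier, and 20 took the RefSeq symbol at their position (Mir191 among them). Counts were analysed with edgeR 4.0.16 in R 4.3.3: filterByExpr kept 245 loci with 99.9573% of counts, libraries were TMM-scaled, and 1 mean per group was fitted over 18 libraries. The quasi-likelihood test was adjusted by Benjamini-Hochberg over 245 loci at 0.05; SE are approximate, from the log2 difference and its F value. CPM use TMM-scaled totals. Shares were compared by exact permutation (scipy 1.17.1). Alternatives included limma 3.58.1 and DESeq2 1.42.0. The fit was tested on simulated data.

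Mir22 and the lists were chosen with earlier results of these data known. Named loci are the 9 next in mean share, the 5 most and 3 least like Mir22, the 5 most like it within groups, loci within 1 Mb, and up to 4 of a list of fat cell miRNAs by abundance; a further list is not reported here. Lists of mesenchymal, haematopoietic, endothelial, epithelial, striated muscle and liver miRNAs served as a check of source.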

Additional observations from a re-analysis of the deposited data

How the results depend on the processing

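Mir22 was higher in EV than in ASC, past the threshold, in every alternative fit: the log2 difference was 0.80 to 1.42 in naive and 0.94 to 1.75 in primed samples over 14 other settings, and 1.09 to 1.45 and 1.47 to 1.68 with 1 library left out. Priming in EV gave 0.06 to 0.46 over settings and 0.25 to 0.47 with 1 library left out (adjusted p 0.121 to 0.893), and the interaction 0.12 to 0.50 and 0.14 to 0.56 (adjusted p 0.159 to 0.907), none past the threshold. Priming in ASC, -0.066 as reported, turned positive with relative log expression factors (0.049), TMMwsp (0.070), factors without Mir22 (0.027), DESeq2 (0.049), limma-voom (0.060), the 2 groups alone (0.037), libraries of a title number summed (0.022) and thinned counts (0.12), and ran from -0.27 to 0.13 with 1 library left out, positive in 11 of 18; the cause was not tested. The shares kept their direction between EV and ASC, at 9.14 to 13.3 and 13.1 to 14.2 points with 1 library left out and 11.1 and 13.9 points with title numbers summed, but missed the threshold (adjusted p 0.0571 to 0.0714), which such smaller groups cannot pass. With 1 library left out, the share difference with priming ran from -3.24 to 0.953 points in ASC and from 0.562 to 1.78 in EV. In EV it was 2.04 points with title numbers summed and 3.30 without the 5 next most abundant loci (exact permutation test, p = 0.0397, adjusted p = 0.0529). Called loci ranged from 0 to 8 for priming in EV, 6 to 33 in ASC and 0 to 3 for the interaction. Mir22 led 13 libraries per base of hairpin, against 16 by counts. With all libraries thinned to the shallowest, the EV and ASC differences were 1.35 and 1.47.

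The main fit did not treat same-numbered samples as pairs, and whether they are pairs was not settled. Same-numbered deviations correlated from -0.160 to 0.525. By source name number, r was above 0.1 in 3 of 4 pairs of naive EV with ASC and 3 of 4 of primed EV with ASC. Between naive and primed samples it was above 0.1 in 4 of 5 pairs in EV and 2 of 3 in ASC. With a replicate block by source name number the 5 values were 1.30, 1.63, 0.36, 0.031 and 0.33, and by title number 1.30, 1.69, 0.43, 0.033 and 0.39, so that the value for ASC priming turned positive and no call changed.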

Other observations

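The epithelial and liver lists, which the comparisons of Mir22 did not use, were low in every library. Of 7 epithelial loci, 6 passed the count filter and 2 were higher in EV in each source comparison, a share near the 33.5 and 35.9% of all loci that were higher in naive and primed samples; their summed share was at most 0.287% of a library. Of 4 liver loci only Mir192 passed, higher in EV by a log2 difference of 2.00 in naive and 2.46 in primed samples, and the list summed to at most 0.127%. Of 11 tested mesenchymal loci, 2 rose and 4 fell in naive EV against ASC, where 33.5% of all loci rose and 32.7% fell. In primed samples 4 rose and 5 fell, where 35.9% of all loci rose and 32.2% fell.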
